A study of Mus musculus with 6 samples.

Results

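The miR-23/27/24 genes of the mouse lie in a pair of clusters. The a cluster (Mir23a, Mir27a and Mir24-2) spans 404 bp at chr8:84208518-84208921 of GRCm38.p6, with no annotated gene spanning it. The b cluster (Mir23b, Mir27b and Mir24-1) spans 792 bp at chr13:63300484-63301275, within the bounds of the protein-coding gene Aopep. Their mature products on the array were chosen by name: mmu-miR-23a-3p, mmu-miR-27a-3p and mmu-miR-24-2-5p from the a cluster, mmu-miR-23b-3p and mmu-miR-27b-3p from the b cluster, and mmu-miR-24-3p, which both clusters encode with an identical sequence (the species prefix mmu is left out below). These are 6 of the 1881 mouse miRNAs measured. Of the 6 members, 5 were detected on all 6 arrays, and miR-24-2-5p was detected on 0 of 6.

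The arrays compared the endothelial cells (ECs) of the 2 capillary subtypes of bone. Type H ECs (CD31hiEmcnhi) carry high levels of the surface proteins CD31 and endomucin, and type L ECs (CD31loEmcnlo) carry low levels of both. The cells came from the bone marrow of wild-type C57BL/6 mice aged 1 month, were sorted by flow cytometry, and were hybridized as 3 Cy3-labelled arrays of type H and 3 of type L. The labels call the arrays biological replicates and give the mice as male, whereas the methods give them as female. Neither says how many mice stand behind an array. The labels also describe culture of the sorted cells in endothelial growth medium, and sorted cells measured directly or after culture cannot be told apart from these sources.

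MiRNAs of these clusters repress target mRNAs that pair with the seed, bases 2 to 8 of the mature miRNA. In endothelial cells, miR-23 and miR-27 are known to promote sprouting and vessel growth by repressing inhibitors of growth factor signalling such as Sprouty2 and Semaphorin 6A, whereas miR-24 is known to restrain angiogenesis through targets that include GATA2 and PAK4. In bone, the a cluster is known as a brake on osteoblast differentiation, with Runx2 among the targets of miR-23a and miR-27a.

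The mature sequences of 5 of the 6 members were found in RefSeq (GRCm38.p6) and are shown because the seed decides which members share targets. Capitals mark the seed.
miR-23a-3p: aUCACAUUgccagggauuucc
miR-27a-3p: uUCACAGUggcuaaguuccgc
miR-27b-3p: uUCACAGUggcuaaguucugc
miR-24-3p: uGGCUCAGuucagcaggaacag
miR-24-2-5p: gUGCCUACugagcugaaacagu

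On chromosome 8, miR-23a-3p lies at chr8:84208563-84208583, miR-27a-3p at chr8:84208727-84208747, miR-24-2-5p at chr8:84208839-84208860 and miR-24-3p at chr8:84208875-84208896, all on the plus strand. On chromosome 13, miR-27b-3p lies at chr13:63300760-63300780 and the second copy of miR-24-3p at chr13:63301251-63301272, also on the plus strand. MiR-27a-3p and miR-27b-3p carry the same seed and differ by 1 of 21 bases, C19U, counted from the 5′ end of the mature miRNA with the miR-27a-3p base first. Among the 1608 array miRNAs with a RefSeq sequence, no other shares the seed of miR-23a-3p. MiR-23b-3p had no sequence there and is not among them, so the seeds of the miR-23 pair were not compared. The seed of miR-24-3p is shared by 4 others (miR-5124b, miR-6369, miR-6410 and miR-6413), which were detected on 0 arrays each.

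Within each pair, the 17-base probes of the a and b members differ by a single base. Those of miR-23a-3p, miR-27a-3p and miR-27b-3p are complementary to bases 5 to 21 of the mature miRNA. This was not checked for miR-23b-3p, which had no mature sequence. The 17-base probes below are from the array files, and capitals mark the base that differs within each pair.
miR-23a-3p probe: ggAaatccctggcaatg
miR-23b-3p probe: ggTaatccctggcaatg
miR-27a-3p probe: gcGgaacttagccactg
miR-27b-3p probe: gcAgaacttagccactg

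The difference was A3T between the miR-23 probes and G3A between the miR-27 probes, counted from the 5′ end of the probe with the a member's base first. The array files place the miR-23a and miR-27a probes at chr8:86732467-86732482 and chr8:86732631-86732646 and the miR-23b and miR-27b probes at chr13:63401842-63401857 and chr13:63402073-63402088 of mm9, an older build whose positions do not compare with those above. The probes of miR-24-3p map to both clusters, so its signal is the sum over them. Binding of one member to its partner's probe was not tested.

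Several facts about the arrays touch every value below. The cell types were hybridized on separate slides, 1 slide for each, and scanned apart, and an effect of the slide cannot be told apart from one of the cell type. Each of the 10 control features that stood well above background on every array was brighter in type H, with log2 differences of 0.22 to 1.46 and a median of 0.61. Type H arrays detected 263 to 281 miRNAs each, and type L arrays 295 to 309. MiR-126a-3p and miR-126a-5p, the defining endothelial miRNAs, were detected on 0 of 6 arrays, with a summed signal of 2.49 to 4.74 intensity units in type H and 0.107 to 0.666 in type L. The 6 haematopoietic markers, like the miR-126a arms, were detected on none of the arrays. Their summed signal was 5.67 to 7.36 units in type H and 3.13 to 3.74 in type L. The methods stain for CD45 and Ter119, and spell out the removal of stained cells for the sort of total bone marrow ECs. Of the 5 stromal and mural markers, all were detected in both cell types, 4 of them on all 6 arrays, and their summed signal was 721 to 917 units in type H and 609 to 701 in type L. In the same limma fit as the members, 4 of these 5 were higher in type H, beside 44.7% of all miRNAs tested. They were led by miR-145a-5p (log2 fold change 1.21) and miR-143-3p, and miR-199a-3p was not called (0.03). With the deposited totals 3 of the 5 were higher, beside 110 of all 311 miRNAs tested, and miR-145a-5p was not called (0.47). The part of these markers in the results was not tested. Cell types are named below as the labels name them.

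The comparison asked which members differ in level between the EC subtypes. After quantile normalization, 4 of the 5 detected members were higher in type H (miR-27a-3p, miR-23a-3p, miR-24-3p and miR-27b-3p) and 1 was lower (miR-23b-3p), by limma with Benjamini-Hochberg adjustment over the 311 miRNAs tested. The fold changes were modest, from 1.33 to 1.72 among those higher. The call for miR-27b-3p was lost without scaling between arrays and under either scaling to the 75th percentile. The other 4 kept direction and call under all of these. Without scaling, their log2 differences were 0.69 (miR-27a-3p), 0.48 (miR-23a-3p), 0.44 (miR-24-3p) and -0.38 (miR-23b-3p). The median log2 difference of the 10 control features, also unscaled, was 0.61, and scaling to these features was not tested. Most of the array differed in the fit after quantile normalization: 270 of 311 miRNAs, 86.8%, were called, 139 (44.7%) higher and 131 (42.1%) lower in type H. The 5 of 5 members called is thus near the share among all miRNAs tested. All 5 also had no overlap between the cell types after quantile normalization, which 87.8% of the tested miRNAs shared. Scaling each array to its 75th percentile turned that split to 98 higher and 176 lower, and no scaling gave 95 and 141. In these bulk arrays, fewer cells carrying a miRNA and less miRNA per cell cannot be told apart.

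**Figure D1:**
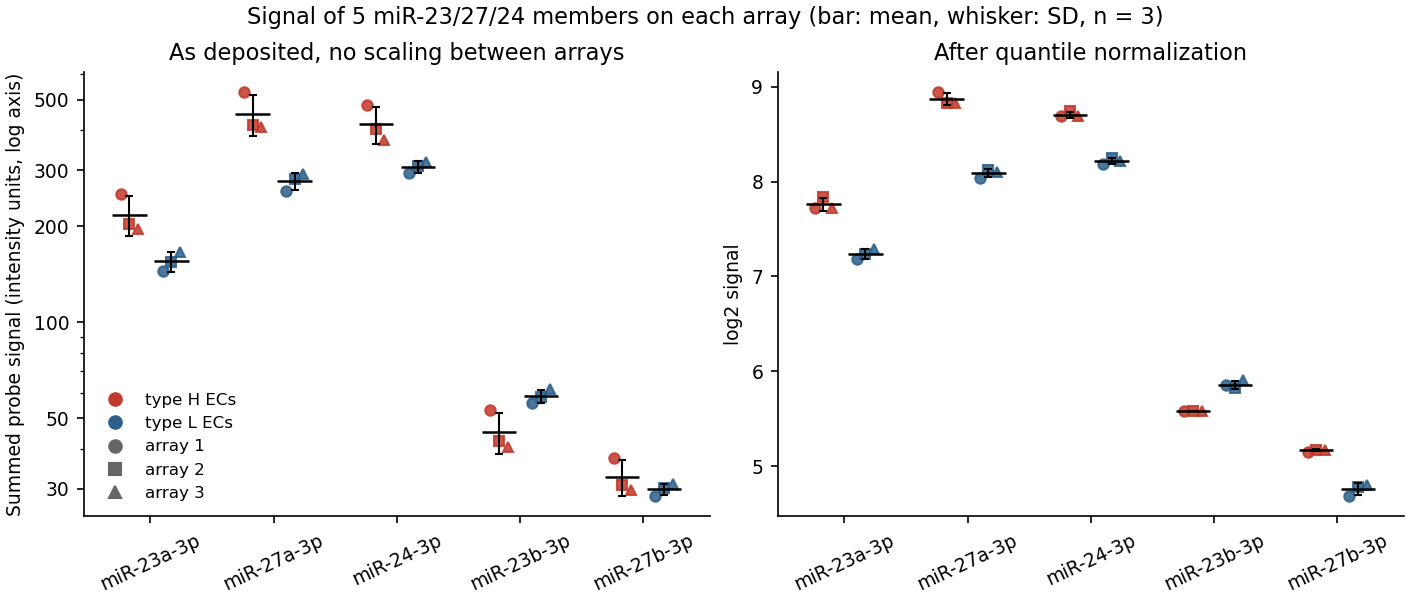
Signal of the 5 detected members on each array, in intensity units on a log axis (left) and as log2 signal after quantile normalization (right). Points are arrays, bars are means and whiskers SD (n = 3). MiR-23a-3p, miR-27a-3p and miR-24-3p lie higher on all 3 type H arrays and miR-23b-3p on all 3 type L arrays in both panels, whereas miR-27b-3p overlaps before normalization (28.5 to 37.4 units over both cell types).

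MiR-27a-3p, the a cluster member that shares its seed with miR-27b-3p, had the largest difference of the 5 detected members. Its summed probe signal was 526, 415 and 411 intensity units on type H arrays 1 to 3, and 259, 282 and 292 on type L arrays 1 to 3. The lowest type H array stood above the highest type L array. After quantile normalization the log2 signal was 8.86 ± 0.064 in type H and 8.09 ± 0.042 in type L (SD, n = 3 each), a log2 fold change of 0.78 (SE 0.044, 95% confidence interval 0.67 to 0.89, limma adjusted p = 2.03e-05), or 1.72-fold. Among the 311 tested miRNAs, 81.4% had a fold change at or below that of miR-27a-3p.

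MiR-23a-3p lies first in the same cluster. Its signal was 253, 204 and 196 units in type H and 144, 155 and 166 in type L, again without overlap. Type H array 1 was the highest, as it was for every detected a cluster member before normalization. The normalized log2 signal was 7.76 ± 0.067 in type H and 7.24 ± 0.052 in type L (SD, n = 3 each), a difference of 0.52 (SE 0.048, 95% confidence interval 0.40 to 0.64, limma adjusted p = 0.000129), or 1.44-fold.

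MiR-24-3p, encoded by both clusters, was also higher in type H. The array values were 479, 403 and 372 units in type H and 293, 309 and 319 in type L. All 3 type H values lay above all 3 type L values. The normalized log2 signal was 8.70 ± 0.031 in type H and 8.21 ± 0.034 in type L (SD, n = 3 each), a difference of 0.49 (SE 0.032, 95% confidence interval 0.41 to 0.57, limma adjusted p = 3.49e-05), or 1.40-fold. In the authors' own log2 table the difference was 0.34.

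MiR-23b-3p, the b cluster partner of miR-23a-3p, went the other way. Its signal was 52.9, 42.3 and 40.6 units in type H and 55.9, 58.3 and 61.6 in type L. The groups did not overlap, although type H array 1 came close to type L array 1. After normalization the type H arrays were all at 5.58, since quantile normalization gives equal values to equal ranks, and type L was at 5.86 ± 0.043 (SD, n = 3). The log2 fold change was -0.28 (SE 0.031, 95% confidence interval -0.35 to -0.20, limma adjusted p = 0.000314), so type H stood at 0.826 of type L.

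MiR-27b-3p gave the least settled result. Its signal was 37.4, 30.8 and 29.7 units in type H and 28.5, 30.1 and 31.0 in type L, and without scaling the 2 groups overlapped. After quantile normalization they did not overlap, with a log2 signal of 5.17 ± 0.011 in type H and 4.76 ± 0.062 in type L (SD, n = 3 each). The difference was then 0.41 (SE 0.038, 95% confidence interval 0.31 to 0.50, limma adjusted p = 0.000145), or 1.33-fold. It was 0.12 (limma adjusted p = 0.42) without scaling and 0.022 (limma adjusted p = 0.66) after scaling to the 75th percentile of the detected miRNAs.

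MiR-24-2-5p, the opposite arm of the a cluster's miR-24 hairpin, was not well above background. Its summed signal was 2.95, 2.42 and 2.13 units on the type H arrays and 0.179, 0.638 and 0.315 on the type L arrays. It was detected on none of them and did not enter the test, so no fold is given. The same held for the other arms of these hairpins and for the miR-3074 products of the opposite strand at the miR-24 sites: of 8 on the array, miR-23a-5p, miR-27a-5p, miR-24-1-5p, miR-23b-5p, miR-27b-5p, miR-3074-5p, miR-3074-1-3p and miR-3074-2-3p, 0 were detected on any array. The detected products of both clusters were thus all 3p arms.

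**Figure D2:**
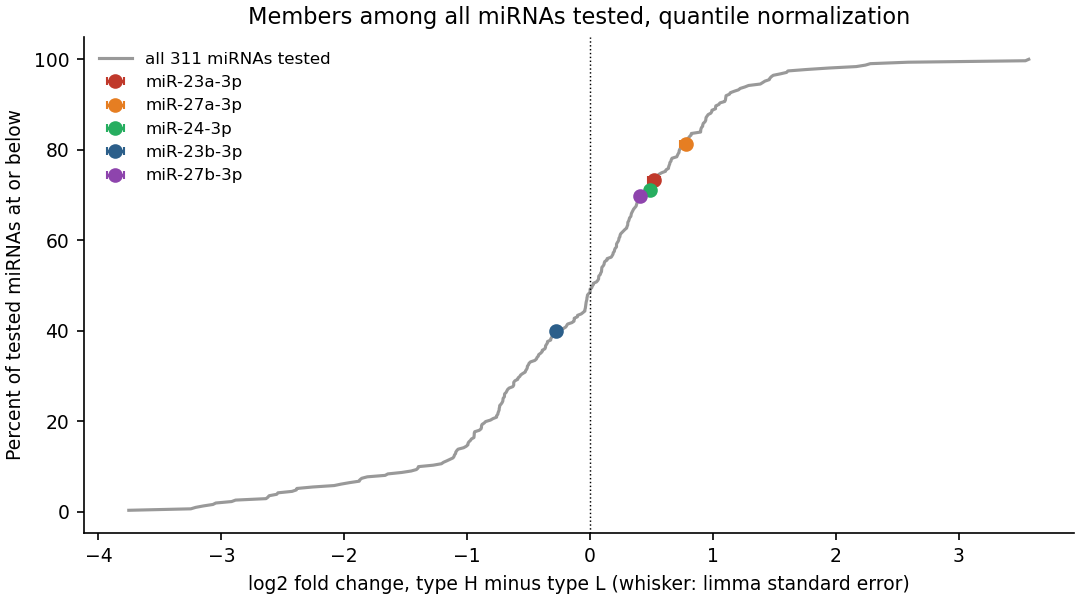
Percent of the 311 tested miRNAs (vertical axis) with a log2 fold change, type H minus type L, at or below the value on the horizontal axis, with the 5 detected members as points and their limma standard error as whiskers. MiR-27a-3p lies at 81.4%, miR-23a-3p at 73.3%, miR-24-3p at 71.1%, miR-27b-3p at 69.8% and miR-23b-3p at 39.9%.

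The a and b clusters were then compared within arrays, since the difference between 2 members on 1 array does not depend on a common scaling of that array. A slide effect that differs between features would not cancel, and the log2 differences of the 10 control features ranged from 0.22 to 1.46. Such an effect on the pairs was not tested. Only the change of this difference between cell types was read, because the members' probes need not bind alike. Without scaling, miR-23a-3p minus miR-23b-3p on the log2 scale was 2.26, 2.27 and 2.27 on the type H arrays and 1.37, 1.41 and 1.43 on the type L arrays. The 3 type H arrays lay closer to each other than the type L arrays did, and well above all 3 type L arrays. The balance thus moved towards the a member in type H by 0.86 (SE 0.019), or 1.82-fold. After quantile normalization the differences were 2.18 ± 0.067 in type H and 1.38 ± 0.046 in type L (SD, n = 3 each), a change of 0.80 (SE 0.047).

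The miR-27 pair shifted in the same direction. MiR-27a-3p minus miR-27b-3p without scaling was 3.81, 3.75 and 3.79 on the type H arrays and 3.18, 3.23 and 3.24 on the type L arrays, with no overlap. The change was 0.57 (SE 0.025), or 1.48-fold. After quantile normalization it was 0.37 (SE 0.046), from 3.33 ± 0.030 in type L to 3.70 ± 0.075 in type H (SD, n = 3 each). For each pair, with or without quantile normalization, an exact permutation of the arrays, two-sided, returned p = 0.10 (0.10 after Benjamini-Hochberg adjustment over the 2 pairs), the smallest p that 3 arrays against 3 allow, so the design could not pass 0.05. All 3 type H arrays lay above all 3 type L arrays in both pairs. Averaged over both pairs, the change was 0.58 (SE 0.024) after quantile normalization and 0.71 without scaling.

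**Figure D3:**
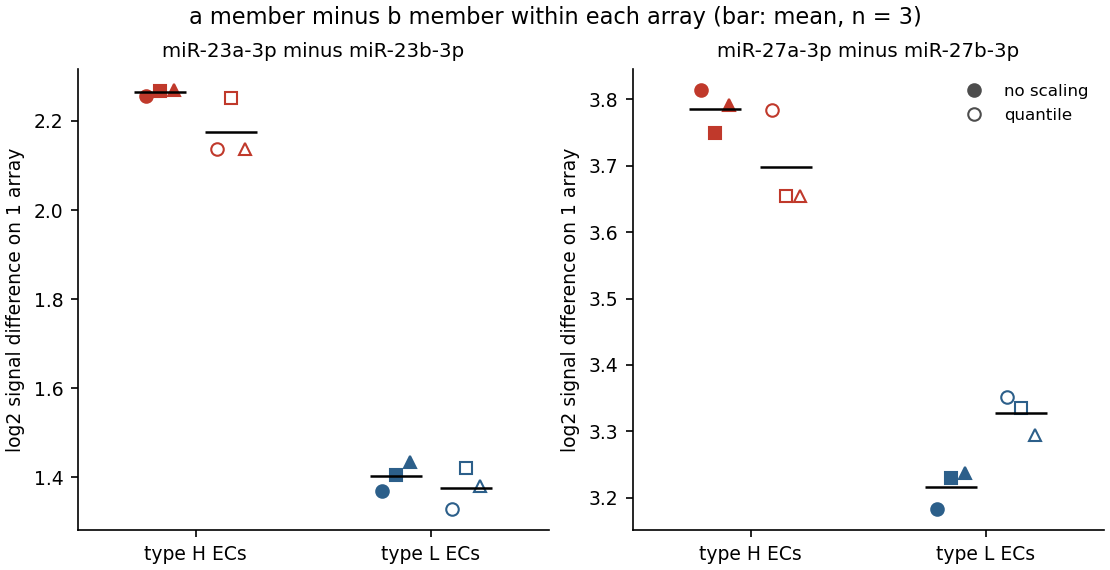
Log2 signal of the a member minus that of the b member on each array (vertical axis), for miR-23 (left) and miR-27 (right), without scaling (filled) and after quantile normalization (open). Circles, squares and triangles are arrays 1, 2 and 3 and bars are means (n = 3). The type H arrays lie above the type L arrays in every set, with a change between cell types of 0.86 and 0.80 for miR-23 and 0.57 and 0.37 for miR-27.

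Since miR-24-3p is made by both clusters, the other members were also set against it on the same arrays, as a description with no test. Relative to miR-24-3p, the log2 change from type L to type H was 0.03 for miR-23a-3p, 0.29 for miR-27a-3p, -0.77 for miR-23b-3p and -0.08 for miR-27b-3p after quantile normalization. Without scaling the values were 0.04, 0.25, -0.82 and -0.32, and the authors' log2 values gave 0.18, 0.39, -0.62 and 0.06. MiR-23b-3p departed from miR-24-3p by the largest amount among these 4 in all 3 readings. The gap between miR-23a-3p and miR-24-3p was wider in the authors' table, and miR-27b-3p changed sign there.

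Since the scalings differed in where they put the bulk of the miRNAs, each member was also read against the median log2 difference of the 231 miRNAs detected on all 6 arrays. That median was 0.11 after quantile normalization, -0.22 after 75th percentile scaling of the detected miRNAs, -0.12 without scaling and 0.19 in the authors' log2 table. Relative to it, miR-27a-3p was higher in type H by 0.54 to 0.81 over these settings, miR-23a-3p by 0.33 to 0.60, miR-24-3p by 0.16 to 0.55 and miR-27b-3p by 0.21 to 0.30. MiR-23b-3p was below the median under each of them, by -0.47 to -0.27. The 75th percentile scaling and no scaling give identical values here by construction, which leaves 3 readings. By their methods the authors' table is also quantile-normalized from the same arrays, so it is not independent of the quantile reading. In each of the 3, miR-27b-3p lay above the median.

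**Figure D4:**
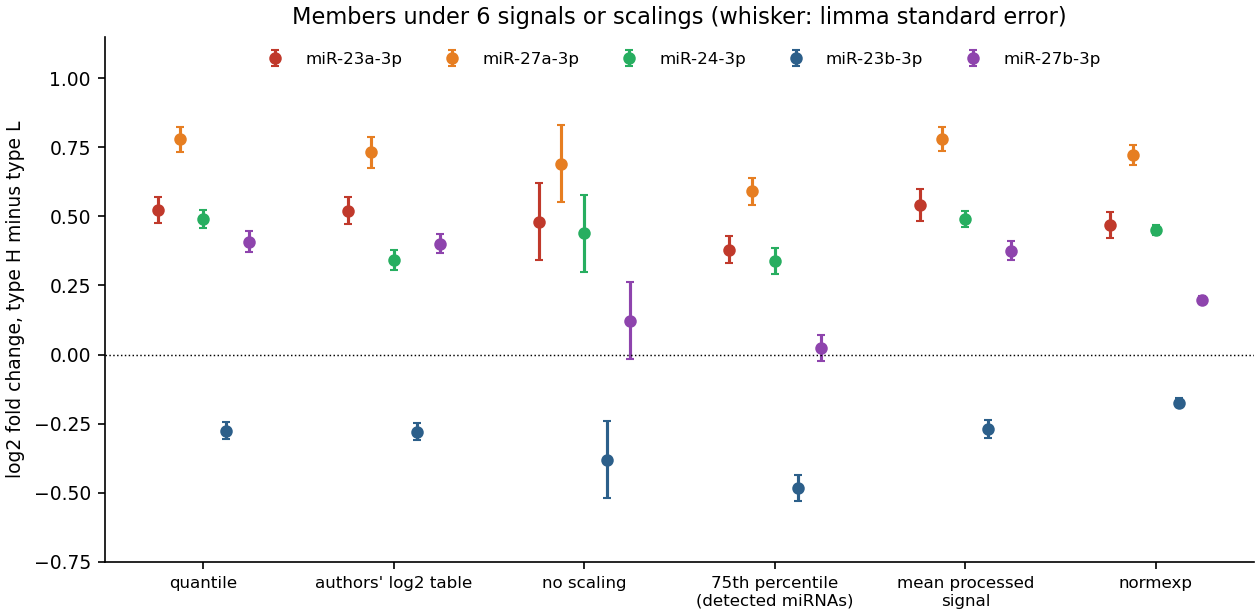
Log2 fold change of the 5 detected members, type H minus type L (vertical axis), under 6 ways to take or scale the signal (horizontal axis). Whiskers are the limma standard error. MiR-23b-3p lies below 0 and miR-23a-3p, miR-27a-3p and miR-24-3p above it throughout, and miR-27b-3p falls to 0.12 without scaling and 0.022 under 75th percentile scaling.

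Each detected member was read by a shorter and a longer probe, on 15 spots each, and all 30 spots were well above background and unsaturated on all 6 arrays. Fitted as 705 separate probes, both probes of every detected member gave the same direction, and all 10 passed the threshold (limma adjusted p from 6.03e-05 to 0.00306), as did 76.9% of all probes fitted. The log2 fold changes of the shorter and longer probe were 0.72 and 0.79 for miR-27a-3p, 0.54 and 0.52 for miR-23a-3p, 0.41 and 0.54 for miR-24-3p, -0.34 and -0.26 for miR-23b-3p, and 0.33 and 0.43 for miR-27b-3p. The widest gap was that of miR-24-3p, 0.13 between its 17-base and 18-base probes. Both probes of a miRNA were scaled by that miRNA's own quantile factor, so their agreement does not test the scaling. Before scaling, both miR-27b-3p probes overlapped between the cell types. The shorter read 5.76 to 7.16 units in type H and 5.60 to 6.22 in type L, and the longer 23.9 to 30.3 and 22.9 to 24.8.

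**Figure D5:**
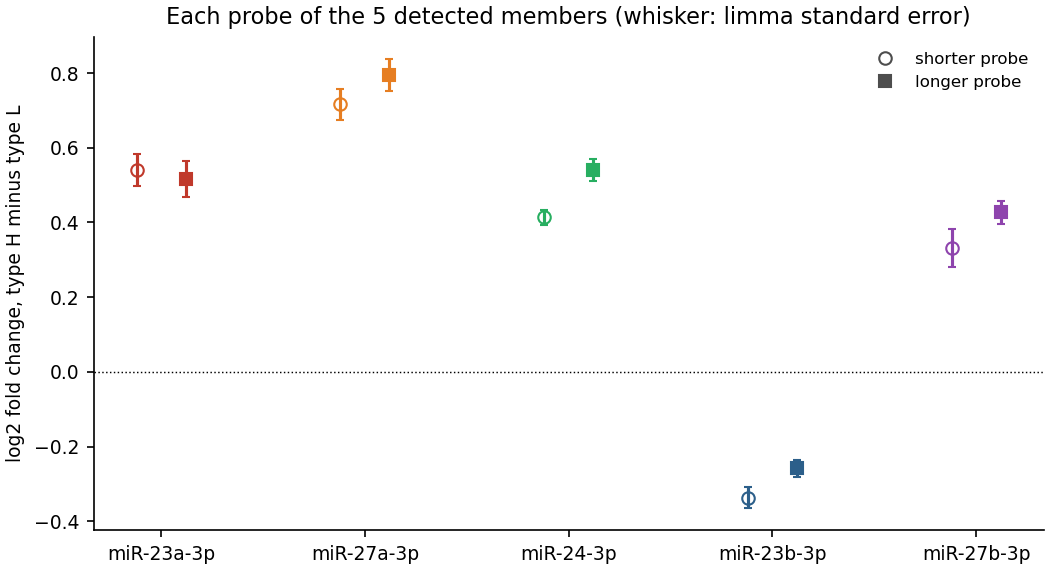
Log2 fold change, type H minus type L (vertical axis), of the shorter (open circles) and longer (filled squares) probe of each detected member, with the limma standard error as whiskers. Both probes of a member, scaled by its quantile factor, lie on the same side of 0. MiR-23b-3p is at -0.34 and -0.26 and the other members lie between 0.33 and 0.79.

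MiR-128-3p, whose first 8 bases (ucacagug) equal the 8 bases of miR-27 from position 2, was detected on 3 of 3 arrays in type H and 0 of 3 in type L. Its summed probe signal was 4.08, 3.27 and 2.96 units in type H and 2.22, 2.26 and 2.41 in type L, without overlap. The deposited totals for this miRNA were 1160, 935 and 921 units in type H and 0.1 on each type L array, far from the sum of its own probes in type H. The size of its difference therefore depended on the signal and scaling used. The log2 difference was 0.47 to 0.92 from the probe sums under 3 scalings. With the authors' log2 table it was 5.11, and with the deposited totals 9.89. No single fold is given, since the type L values are those of an undetected miRNA.

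The angiogenesis-linked miRNAs listed from textbook knowledge gave the wider setting. Of 22 on the array, 18 were tested, of which 11 were higher in type H, 4 were lower and 3 were not called. Among all miRNAs tested 86.8% were called, 44.7% higher and 42.1% lower. Under 75th percentile scaling the list counts were 9 higher and 7 lower, beside 98 and 176 of all 311. With the deposited totals per miRNA they were 10 and 3, beside 110 and 108 of 311. The median log2 fold change of the 17 detected on all 6 arrays was 0.21, beside 0.11 for the 231 such miRNAs in all and 0.49 for the 5 members. The largest rise among these 17 was that of miR-18a-5p, a product of the miR-17-92 cluster (log2 fold change 2.28, SE 0.057, limma adjusted p = 2.61e-06). With the deposited totals, which exceed the sum of its own probes on the type L arrays, it was 0.89. The largest fall was that of miR-218-5p, known to repress the Robo receptors of vessel guidance (-0.68, SE 0.045, limma adjusted p = 3.50e-05). Its direction turned with the deposited totals (4.32), which were 218, 190 and 182 units in type H against probe sums of 6.05, 4.99 and 4.89, whereas the authors' log2 table gave -1.18.

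Among the other 230 miRNAs detected on all 6 arrays, the 3 whose log2 profile lay nearest to each member were found by the root mean square distance after each miRNA's own mean was taken off. The nearest to miR-23a-3p was its cluster neighbour miR-24-3p (distance 0.036), followed by miR-151-5p (0.047) and let-7d-5p (0.049). For miR-24-3p they were let-7d-5p (0.025), miR-361-5p (0.033) and miR-23a-3p (0.036). MiR-27a-3p lay nearest to miR-342-3p (0.045), miR-149-5p (0.056) and miR-15a-5p (0.056), and not to a member. In the b cluster, miR-23b-3p lay nearest to miR-8101 (0.043), miR-7226-5p (0.048) and miR-99a-5p (0.051), and miR-27b-3p to miR-107-3p (0.035), let-7b-5p (0.038) and miR-378d (0.039). With 6 arrays in 2 groups, such distances mainly rank miRNAs by the size of their difference between cell types.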

How the data were processed

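Agilent 1-colour arrays measured miRNA in type H ECs (3 arrays) and type L ECs (3 arrays). The authors extracted spot intensities and probe totals with Feature Extraction 10.7.1.1 (background-subtracted, spatially detrended) and deposited the intensities unscaled between arrays. The file headers name another design number than the methods. The authors also deposited a log2 table of 1902 features that their methods describe as quantile-normalized in GeneSpring. Its scale and direction followed the scanner signal, and its offset at the level of undetected miRNAs is unknown.

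A miRNA's signal was the sum of the totals of its distinct probes. For the members it equalled the deposited total per miRNA within a relative tolerance of 0.0001. For some other miRNAs the deposited total did not equal that sum, and probe sums were used. Signals were quantile-normalized over 1881 miRNAs, floored at 1 and log2-transformed. The 311 miRNAs detected on every array of 1 or both cell types were fitted with limma 3.58.1 (lmFit, eBayes) in R 4.3.3, without covariates and called at a Benjamini-Hochberg adjusted p under 0.05. The array text names no test, so the Student test of the statistics section was an alternative. On simulated data for this comparison, with 60 of 311 miRNAs changed by 0.5 or by 1 on the log2 scale, the fit recovered 52 and 60 of them and called 1 and 4 unchanged miRNAs. The simulation added independent noise to already normalized values, without a slide effect or a normalization step. It therefore does not measure false calls from either, and far fewer miRNAs were changed in it than were called in the data. Replicate numbers did not pair the arrays. Precision is limited by how few arrays there are, and p-values measure the spread between arrays of 1 slide.

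Named miRNAs were the 6 members, other arms and shared seeds of the hairpins, the extremes of an angiogenesis list among miRNAs detected on all 6 arrays, markers, and the 3 nearest profiles per member. The members and lists were chosen with earlier results of these data known. Alternatives covered scaling, background correction, floor, filter, probe, array weights, test and left-out arrays. Mature sequences are from RefSeq (GRCm38.p6), and probe sequences and mm9 positions are from the array files.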

Additional observations from a re-analysis of the deposited data

How the results depend on the processing

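MiR-23a-3p, miR-27a-3p, miR-24-3p and miR-23b-3p kept direction and call under all 17 alternatives in signal, scaling, background, floor, filter, probe and test, with log2 fold changes of 0.38 to 0.54, 0.59 to 0.83, 0.34 to 0.54 and -0.48 to -0.17. MiR-27b-3p kept its direction but lost its call under 75th percentile scaling over the detected miRNAs (0.022, limma adjusted p = 0.66) or over all miRNAs (0.13, limma adjusted p = 0.28) and without scaling (0.12, limma adjusted p = 0.42), and was 0.20 to 0.43 under the other 14. 1 of these alternatives, undetected miRNAs set to 0.1, was chosen after the data were seen. Leaving out each array in turn changed no member's call, with ranges of 0.48 to 0.54 (miR-23a-3p), 0.74 to 0.80 (miR-27a-3p), 0.46 to 0.51 (miR-24-3p), -0.32 to -0.25 (miR-23b-3p) and 0.38 to 0.42 (miR-27b-3p). The change in a minus b signal was 0.64 to 0.88 for miR-23 and 0.33 to 0.57 for miR-27 over 12 alternatives. Over all miRNAs, 413 of 1881 were called without the detection filter against 270 of 311 with it, and most of the variances in that unfiltered fit were at 0.

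Same-numbered arrays did not deviate together (correlations of -0.01, -0.03 and 0.12 over 231 miRNAs), so the replicate numbers gave no pairing. With the replicate block, log2 fold changes were 0.52, 0.78, 0.49, -0.28 and 0.41 for miR-23a-3p, miR-27a-3p, miR-24-3p, miR-23b-3p and miR-27b-3p, 262 miRNAs were called instead of 270, and no member's call changed. In the a minus b comparison, the changes under the block were 0.80 and 0.37, and the mean of both pairs was 0.58, with an exact p of 0.25, the smallest that 3 pairs allow. Blocking on the slide was not possible, because each slide holds 1 cell type.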
